A study of Mus musculus with 12 samples.

Results

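The data described are the 3 scramble samples among 12 samples of RNA sequencing from a murine BrafV600E melanoma line, chosen by their labels and by no measured value. They were described across all 30705 gene names of the table by their mean over the 3 samples. The line was established from a C57BL/6 mouse with the alleles Braf+/LSL-V600E, Tyr::CreERT2+/o, and p16INK4a-/-. The first makes the kinase Braf constitutively active once Cre has removed a stop cassette, the second drives an inducible Cre in cells that use the tyrosinase promoter, and the third removes a brake on the cell cycle. Scramble cells went through CRISPR/Cas9 handling with a control guide, carry the genotype label Control, and have no knockout. All samples stem from the line of 1 mouse, grown in plastic dishes in medium with 10% serum, with no stroma or host cells added. The study calls such samples subclones in 1 place and independent samples in another. The spread between them may therefore be biological or technical.

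Melanocytes arise from the neural crest and make pigment in melanosomes, under the transcription factors MITF and SOX10. Melanoma cells can keep that program or lose it, and cells that lose it often gain the receptor AXL, AP-1 and TEAD factors, and genes of mesenchymal cells. Signals from an active BRAF pass through MEK and ERK to AP-1 factors, cyclin D1, and feedback phosphatases. Cyclooxygenases and prostaglandin E synthases turn arachidonic acid into prostaglandin E2, the pathway that the study edited in its other lines.

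Values are RPKM, reads scaled to transcript length in kilobases and to sequencing depth, so levels of different genes are compared per length. A gene was counted as detected at a mean of at least 1 RPKM. By this limit 11314 gene names (36.8%) were detected, 14103 (45.9%) were listed at 0 in all 3 samples, 1384 reached 100 RPKM, and 93 reached 1000 RPKM. Among the 20572 rows described as mRNA, 50.5% were detected and 31.4% were at 0, the background for the counts of list members given here. The table gives no depth. The steps between low values gave a rough estimate of between 15.3 and 16 M reads per sample, with a weak fit score of 0.375 to 0.418 where 1 is exact, and a listed 0 says only that no read is shown for the gene. The coefficient of variation between the samples had a median of 7.57% over the detected genes and 4.73% over those at 100 RPKM or more. An exact two-sided permutation test of 3 values against 3 cannot go below 0.1, so no p-value is given. Genes next to each other in an order are called apart where the ranges of their 3 samples did not overlap. This rule and the permutation limit treat the genes as unpaired, although they were measured in the same samples. Values with ± are means and SD over the 3 samples, and log2 differences are of log2(RPKM + 0.1) within a sample.

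The most abundant transcripts were those of mitochondria, of translation, and of the cytoskeleton and its calcium-binding proteins. The 20 highest rows held 24.4% ± 1.24 of the summed RPKM, and 6 rows of mitochondrial genome products held 10.8% ± 0.419. The subunit genes Atpase6 (32900.1, 37726, and 34922 RPKM in replicates 1 to 3) and Cox2 (33351, 33903, and 32925 RPKM) led the table. The row named Cox2 is subunit II of cytochrome c oxidase, encoded in the mitochondrial genome, and is not the cyclooxygenase COX-2, whose row is Ptgs2. Of the 30 highest rows, 8 were not described as mRNA, among them the ribosomal RNA row Rn45s, the mitochondrial Cytb, Gm10222, and rows known by a clone name alone. Of the latter, DQ539915 had rank 3 (28936, 32266.5, and 30013 RPKM), and AK163440 and AK018753 were among the 10 highest. Eef1a1, the elongation factor that brings aminoacyl-tRNA to the ribosome, was the highest nuclear gene described as mRNA, at 11661, 12057, and 12152 RPKM. Vim, the mesenchymal intermediate filament vimentin, followed at 6840.2, 7046, and 6738 RPKM, and the motility-linked calcium-binding gene S100a4 at 6789, 5901, and 6252 RPKM. Replicate 1 was the highest for S100a4, where its range met that of Vim, and Eef1a1 was apart from both.

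Lgals1, the secreted lectin galectin-1, was at 5435, 4213, and 4746 RPKM, with replicate 1 the highest and replicate 2 the lowest. Gapdh (4406 ± 106 RPKM), Pkm (3139 ± 67 RPKM), and Eno1 (3133 ± 35 RPKM) placed 3 glycolytic enzymes among the 30. Others of the 30 included the translation genes Eef2 (4199 ± 179 RPKM), Tpt1 (3919 ± 157 RPKM), Rps2, Rplp0, Rplp1, and Rpl19, the chaperones Hspa8 (2807 ± 57.4 RPKM), Hsp90ab1 (2413 ± 48.3 RPKM), and Ppia (3469 ± 300.1 RPKM), S100a6 (3824 ± 275 RPKM), the ferritin light chain Ftl1 (2766 ± 42.4 RPKM), Actb (2441 ± 107 RPKM), and the membrane-binding annexin Anxa2 (2200.2 ± 127 RPKM). Together the 77 genes of cytosolic ribosomal proteins held 10.2%, 8.95%, and 8.77% of the sum in replicates 1 to 3. The 28 genes of glycolytic enzymes and lactate dehydrogenases held 1.90% ± 0.0208, and the list of 26 melanocyte genes 0.00662% ± 0.000397. Genes with near-identical copies, such as ribosomal proteins, Eef1a1, Ppia, actins, tubulins, and thymosins, may share reads with them, and their values are the less certain for it. The same holds for 81 of the 584 detected list genes, which share exon bases with another protein-coding gene in GENCODE M21, among them Ccnd1 (29.4% of its bases, opposite LTO1), and Cdk4 (26.7%, opposite Tspan31).

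**Figure D1:**
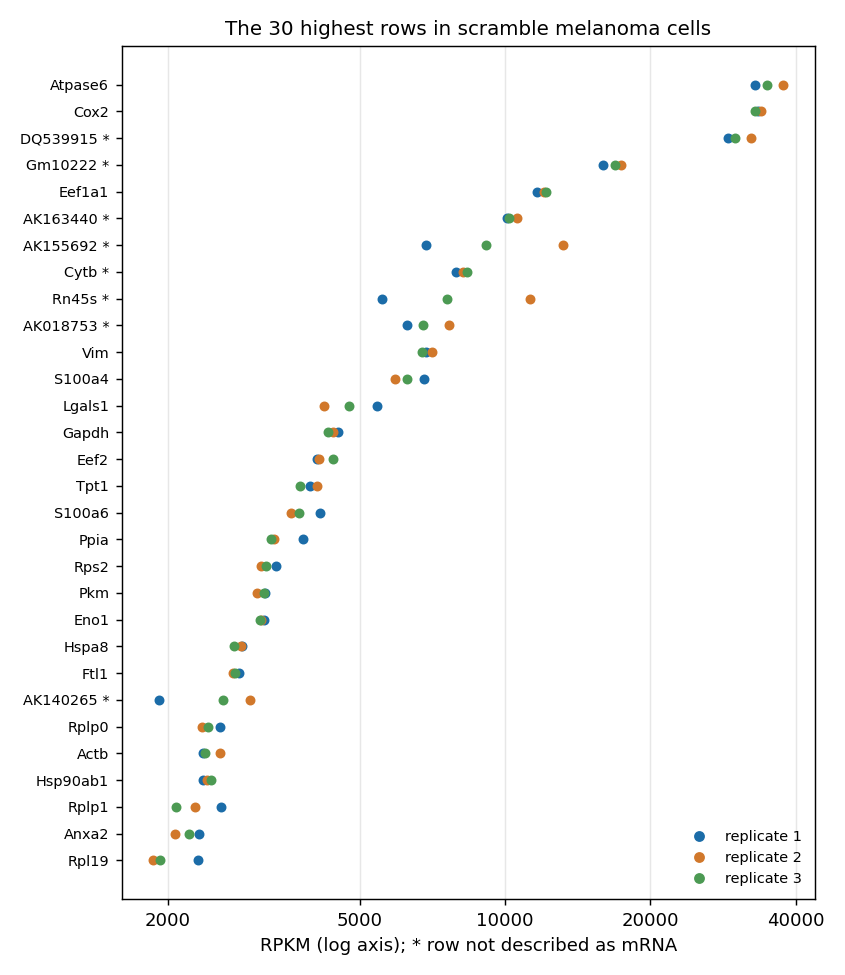
The 30 rows with the highest mean RPKM (log axis), with a point for each of the 3 samples and an asterisk on rows not described as mRNA. The points of a row lie close together except for Rn45s, AK155692, and AK140265, which were lowest in replicate 1 and highest in replicate 2.

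The pigment program was largely absent from these cells. Of 26 genes of melanocyte differentiation and pigment, 6 (23.1%) were detected, against 50.5% of all rows described as mRNA, 10 were at 0 in all samples, and the list median was 0.0217 RPKM. Mitf, the master regulator of the lineage, was at 2.33, 2.7, and 3.01 RPKM. Sox10, which acts upstream of it, was at 0 in each sample, whereas Pax3, a further upstream factor, was at 5.46, 4.55, and 7.1 RPKM. Of the melanin enzymes, the rate-limiting tyrosinase gene Tyr was at 1.29, 0.83, and 0.82 RPKM, on both sides of the limit, and Tyrp1 and Dct were at 0. Pmel, the fibril protein of the melanosome, was at 0.61, 0.66, and 0.34 RPKM, and Mlana, a melanosome protein used in diagnosis, was at 0. Slc24a5, an ion exchanger of the melanosome, was at 1.26, 2.01, and 1.77 RPKM and was the one melanosome transporter above the limit. It shares 36.5% of its exon bases with Myef2 on the opposite strand (47.8 RPKM), and whether reads were counted by strand is not given in the sources used here. The remaining detected members were Cdk2 (28.2 ± 1.51 RPKM), a cell cycle kinase of dividing cells at large, the lysosomal and melanosomal glycoprotein Gpnmb (15.9 ± 0.744 RPKM), and the receptor Erbb3 (1.85 ± 0.136 RPKM). Of the other listed receptors through which melanocytes receive signals, Kit was at 0, and Mc1r and Ednrb were at no more than 0.02 RPKM in any sample. The melanosome proteins Slc45a2, Oca2, and Gpr143, and Rab27a, which ties melanosomes to their motor, were also at 0. The defining melanocyte markers thus mostly went against a melanocytic name for these cells at the RNA level. They are called melanoma here by their labelled origin.

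The promoters of several pigment genes carry the letters by which MITF is known to bind. They are shown because the enzymes Tyr, around the limit here, and Tyrp1 and Dct, both at 0, hold the same run around the E-box CATGTG. The windows are from RefSeq promoters on GRCm38.p6, the reference build of which mm10 is the browser name, within the 250 bases before the annotated start, 5′ to 3′ on the gene's strand, with the E-box in capitals.
Tyr, chr7:87493513-87493578 (-): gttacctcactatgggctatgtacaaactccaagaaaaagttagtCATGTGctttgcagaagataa
Tyrp1, chr4:80834122-80834212 (+): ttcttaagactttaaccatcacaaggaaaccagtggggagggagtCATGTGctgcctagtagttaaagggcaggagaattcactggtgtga
Dct, chr14:118052346-118052441 (-): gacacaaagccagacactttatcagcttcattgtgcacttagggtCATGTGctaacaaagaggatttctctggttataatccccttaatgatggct
The E-box began 21, 46, and 150 bases before the start. The letters shared around it were GTCATGTGCT, which 51 of 32851 promoters (0.155%) held on either strand. Promoters were given for 17 of the 26 melanocyte genes, and 8 of these held CATGTG or its reverse complement (Dct, Mc1r, Oca2, Slc24a5, Trpm1, Tspan10, Tyr, and Tyrp1). In all promoters the share was 12.3%, and by gene it was 13.8% of 27025 genes. Of the 8, Slc24a5 alone was detected. In the mesenchymal list 0 of 17 genes with a promoter held CATGTG, and 2 (Ror2 and Zeb2) held the AP-1 letters TGACTCA. Those letters were found in 4.46% of all promoters and, by gene, in 5.16% of 27025 genes. A match of letters is a description and not a binding site.

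Genes of the neural crest were detected in part. Of 25 listed, 14 (56.0%) were detected, near the 50.5% of all rows described as mRNA, and 7 were at 0. Crabp1, a cytosolic carrier of retinoic acid, was at 1382, 1252, and 1218 RPKM and held 80.1% of the summed RPKM of the list, with replicate 1 the highest. Sox2, a factor of neural progenitors and stem cells, was at 85.5, 75.4, and 82.1 RPKM. The next were Twist2 (62.6 ± 1.5 RPKM), Ets1 (56 ± 2.38 RPKM), Twist1 (54 ± 3.14 RPKM), Tfap2a (11.6 ± 0.919 RPKM), and the water channel Aqp1 (11.4 ± 0.864 RPKM). Snai2 (9.72 ± 0.924 RPKM), Tfap2b (8.04 ± 0.807 RPKM), Msx1 (6.42 ± 0.891 RPKM), and Sox9 (2.85 ± 0.203 RPKM) were lower. Of the genes that mark crest cells and crest-like melanoma cells, Sox10, Foxd3, Ngfr, Rxrg, Msx2, and Zic1 were at 0 in all 3 samples. Other crest factors of the list, Pax3 (5.7 ± 1.29 RPKM), Tfap2a, Snai2, and Sox9, were detected.

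Genes of the mesenchymal, dedifferentiated state were nearly all detected. Of 30 listed, 26 (86.7%) were detected, against 50.5% of all rows described as mRNA. In the list 21 genes reached 10 RPKM, as did 25.8% of all gene names, and the list median was 37.8 RPKM. The list was chosen with earlier results of these data known. Axl, the receptor tyrosine kinase that marks this state in melanoma, was at 904, 1046, and 1014 RPKM. Apart from Vim, the high members were the matrix protein Sparc (816 ± 37.1 RPKM), the actin-binding Tpm1 (543 ± 11.1 RPKM), the hyaluronan receptor Cd44 (374 ± 14.5 RPKM), Cav1 (301 ± 3.12 RPKM), Ccn1 (289.6 ± 11.7 RPKM), Jun (238 ± 18.9 RPKM), N-cadherin Cdh2 (211 ± 7.75 RPKM), and Fosl1 (182 ± 1.83 RPKM). Fn1 (43.8 ± 2.51 RPKM), Ccn2 (38.3 ± 1.38 RPKM), Thbs1 (35.1 ± 4.08 RPKM), Prrx1 (11.3 ± 0.782 RPKM), Ror2 (9.29 ± 0.569 RPKM), Tgfbi (5.26 ± 0.444 RPKM), and Wnt5a (4.52 ± 0.273 RPKM) were lower. The 4 members under the limit were Egfr (0.12, 0.07, and 0.23 RPKM), often high together with AXL in human lines, Nt5e (0.35, 0.75, and 0.4 RPKM), Loxl2 (0.19, 0.15, and 0.12 RPKM), and Tnc, which was at 0. The lists of the neural crest and of the mesenchymal state share Twist1, Twist2, Snai1, and Snai2, so their counts are not independent.

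Most markers of other cell types were at or near 0. In the fibroblast list 3 of 14 were detected, and S100a4 held 99.7% of its summed RPKM. Pdgfrb (11.1, 9.17, and 15.1 RPKM) and Pdgfra (8.06, 7.82, and 8.37 RPKM) were low, Col1a1 (0.24, 0.38, and 0.31 RPKM) and Col1a2 (0.08, 0.14, and 0.21 RPKM) lay under the limit, and Dcn, Lum, Thy1, Pdpn, and Postn were at 0. Of 7 smooth muscle genes, Smtn (40.2 ± 3.13 RPKM) and Tagln (1.28 ± 0.4 RPKM) were detected, and Acta2 was at 0. Of 13 immune genes, 1 was detected, the lysosomal gene Cd68 (1.4, 1.74, and 2.05 RPKM), and the pan-leukocyte gene Ptprc had at most 0.03 RPKM. None of the 8 endothelial and 9 epithelial genes was detected, with Pecam1 at most 0.09 RPKM, E-cadherin Cdh1 at 0, and keratin Krt8 the highest at 0.92, 0.89, and 0.88 RPKM. Of 8 Schwann cell and glial genes, Erbb3 and Egr2 (1 ± 0.155 RPKM) were detected.

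**Figure D2:**
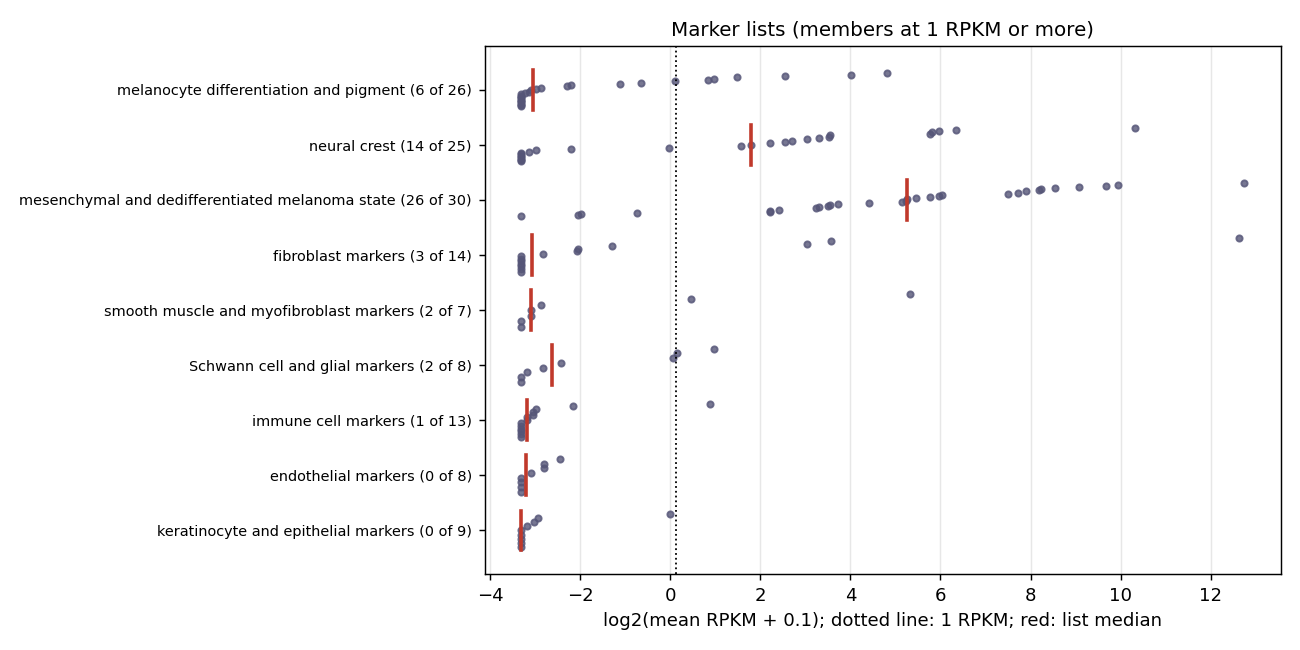
Mean RPKM over the 3 samples, as log2(mean RPKM + 0.1), for every gene of 9 marker lists, with a point for each gene, a red bar at the list median, and a dotted line at 1 RPKM. The median of the mesenchymal list lies at 37.8 RPKM and that of the neural crest list at 3.36 RPKM, and the medians of the other 7 lists, the melanocyte list among them, lie under 0.1 RPKM.

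Among transcription factors, Sox2, Pax9, Tfe3, Jun, Fosl1, Tead1, Twist2, and Hoxd9 led their families. Sox2 led the Sox family, 3.95 times the level of Sox21 (20.5 ± 1.76 RPKM), and Sox4 (19.5 ± 1.48 RPKM) overlapped Sox21. Of 19 Sox genes, 6 were detected and 10, Sox10 among them, were at 0. In the Pax family, Pax9 (17.6, 16.1, and 18.4 RPKM), known from the pharyngeal pouches and teeth, and Pax6 (13.1, 10.2, and 10.1 RPKM), known from the eye, were above Pax3, and the 6 other members were at 0. The 3 detected Pax genes were apart from each other. The MiT-TFE family was led by the lysosomal regulator Tfe3 (18.9, 22.3, and 21.9 RPKM), 5.08 times Tfeb (4.55, 4.03, and 3.84 RPKM), and Mitf came below Tfeb with no overlap. The log2 difference was 2.32 ± 0.25 between Tfe3 and Tfeb and 0.61 ± 0.30 between Tfeb and Mitf. Twist2 was apart from Twist1 by a log2 difference of 0.21 ± 0.06, and both were above Zeb1 (21.3 ± 1.84 RPKM) and Zeb2 (13.1 ± 1.14 RPKM).

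Jun led the Jun factors at 4.1 times Junb (58.1 ± 2.39 RPKM), with Jund (33.3 ± 1.6 RPKM) below. Fosl1, the Fos factor that ERK signaling stabilizes, was at 180.5, 181, and 184 RPKM, 2.36 times Fosl2 (77.2 ± 5.41 RPKM), although 62.4% of its exon bases overlap Ccdc85b on the opposite strand (26.3 RPKM). Fosb (28.6 ± 1.3 RPKM) came next and Fos (12.5 ± 1.51 RPKM) last, and all 4 Fos genes were apart from their neighbours. Tead1 (65.1 ± 9.25 RPKM) led Tead4 (37.4 ± 2.93 RPKM) and Tead2 (23.8 ± 1.16 RPKM), the DNA-binding partners of YAP. Myc was at 80.7 ± 2.84 RPKM, Mycl at 7.7 ± 1.92 RPKM, and Mycn at 0. Tfap2a was apart from Tfap2b, and the 3 further AP-2 genes were at 0.

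Hox genes, which record the position of a cell along the body axis, were low apart from the D cluster. Hoxd9 (chr2:74697727-74700208 of GRCm38) was at 45.3, 41.2, and 41.6 RPKM and the neighbouring Hoxd8 (chr2:74704615-74707933) at 30.7, 31.8, and 39.9 RPKM, with no overlap. The next of that cluster by level, Hoxd3, was at 5.85 ± 0.53 RPKM, and Hoxd11, Hoxd12, and Hoxd13 at the 5′ end of the cluster and Hoxd1 at the 3′ end were at 0. In the A cluster Hoxa5 (13.9 ± 1.61 RPKM) and Hoxa7 (11.3 ± 1.29 RPKM) overlapped, in the B cluster so did Hoxb7 (9.17 ± 0.773 RPKM) and Hoxb6 (7.9 ± 1.12 RPKM), and Hoxc6 (12.7 ± 0.351 RPKM) was 10.9 times Hoxc5 (1.16 ± 0.0306 RPKM). Of 48 nuclear receptors, 21 were detected. The retinoic acid receptor Rarg (62.1 ± 2.78 RPKM), the orphan receptor Nr2f2 (62.1 ± 3.06 RPKM), and the clock gene Nr1d2 (61.7 ± 2.63 RPKM) led and did not differ beyond their spread.

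**Figure D3:**
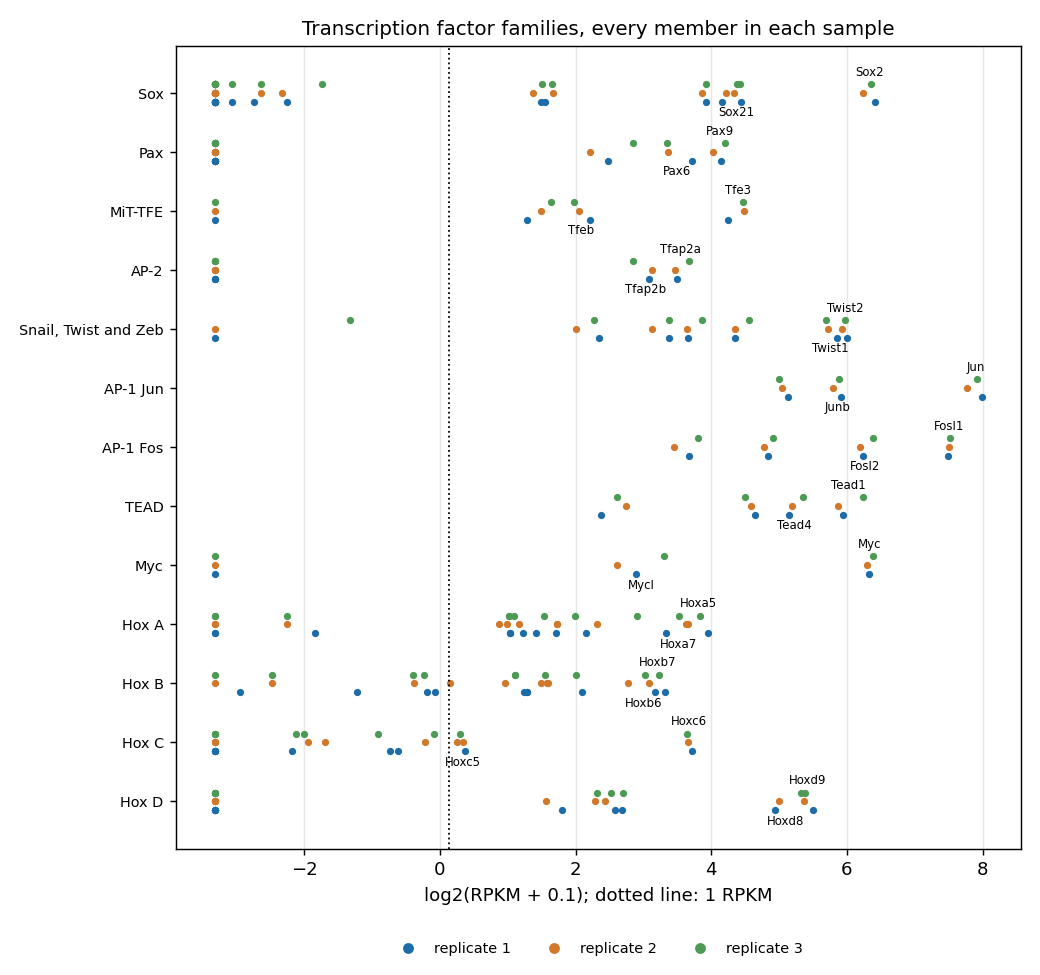
Every member of 13 transcription factor families in each of the 3 samples, as log2(RPKM + 0.1), with a dotted line at 1 RPKM and the names of the leading pair of detected genes. The leader lies clear of the second gene in each family shown except Hox A and Hox B.

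The RAF-MEK-ERK cascade and its outputs were expressed. Braf, the mutated kinase, was at 10.3, 10.6, and 11.8 RPKM, below its relative Araf (30.4, 29.7, and 31.6 RPKM) with no overlap. The table gives 1 value for the gene and does not tell the mutant allele from the wild-type one. Map2k1 (86.7 ± 2.3 RPKM) was above Map2k2 (59.1 ± 7.78 RPKM), and Mapk3, which encodes ERK1, was at 224 ± 5.24 RPKM. Rras2 (176 ± 9.84 RPKM) led the Ras genes, above Nras (95.6 ± 6.09 RPKM) and Rras (61.8 ± 4.92 RPKM), and Hras was lower. The phosphatase genes that ERK induces as feedback, Dusp4 (133 ± 7.56 RPKM) and Dusp6 (125 ± 7.03 RPKM), were near Dusp1 (140.2 ± 7.92 RPKM), and these 3 overlapped. Spred1 (129 ± 9.73 RPKM), Spry2 (87.1 ± 3.96 RPKM), and Spred2 (50.6 ± 2.15 RPKM), inhibitors of the same pathway, were apart from each other.

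Cell cycle genes held high Ccnd1 and Cdk4 and almost no Cdkn2a. Cdkn2a, the locus of p16INK4a, was at 0.9, 0.79, and 0.86 RPKM, under the limit in each sample, and its neighbour Cdkn2b was at 0. The locus also encodes p19ARF, so the value does not measure p16INK4a alone. Ccnd1, cyclin D1, was at 885, 853, and 899.9 RPKM, 12.7 times Ccnd2 (69.1 ± 4.37 RPKM), with Ccnd3 (64.3 ± 1.66 RPKM) just below Ccnd2 and with no overlap. Cdk4, the partner kinase of cyclin D1, was at 542, 499, and 511 RPKM and Cdk6 at 16.3, 18.7, and 18.6 RPKM. The ratio of Cdk4 to Cdk6 was 28.9. Cdkn1a, the p53 target p21, was the highest CDK inhibitor at 133 ± 4.15 RPKM, above Cdkn1b (47.7 ± 2.19 RPKM) and Cdkn2c (45.2 ± 2.12 RPKM), and Trp53 itself was at 181 ± 9.24 RPKM. Of the RB family, Rbl1 (46.1 ± 3.73 RPKM) was the highest, and Rbl2 (19.2 ± 0.77 RPKM) and Rb1 (18 ± 0.827 RPKM) overlapped.

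Receptor tyrosine kinases were unequal in level. Of 58, 26 were detected (44.8%, near the 50.5% of all rows described as mRNA), 5 reached 100 RPKM, and 18 were at 0, and Axl alone held 40.3% of their summed RPKM. Axl was 1.61 times Epha2, an ephrin receptor of melanoma cells (605, 630.4, and 611 RPKM), and the collagen receptor Ddr2 followed at 135, 146, and 155 RPKM. Replicate 1 was the lowest for all 3. The growth factor receptors Igf1r (132 ± 12.5 RPKM) and Met (121 ± 6.01 RPKM) came next, Igf1r with a range that met those of both Ddr2 and Met. Of the TAM family, to which Axl belongs, Mertk (26.3 ± 2.64 RPKM) and Tyro3 (25.2 ± 3.88 RPKM) were both far lower. Erbb2 (54.3 ± 3.17 RPKM) was the highest EGF receptor gene, with Egfr near 0.

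Among adhesion receptors, Itga3 (858, 954, and 879 RPKM) and Itgb1 (705, 733, and 710.4 RPKM), which pair as a laminin receptor, led the integrin chains. Itgav (266 ± 24.7 RPKM) and Itga6 (249 ± 19.1 RPKM) were next among 18 alpha chains, 8 of them detected. Of 8 beta chains, 3 were detected, and Itgb7 (213 ± 3.11 RPKM), best known from lymphocytes, was apart from Itgb5 (197 ± 1.46 RPKM). The known partners of Itgb7 were low, with Itga4 at 3.62, 4.19, and 3.95 RPKM and Itgae at 0.15, 0.09, and 0.17 RPKM. The vitronectin receptor chain Itgb3, which invasive human melanoma often gains, was at 0.01, 0.08, and 0.02 RPKM. Cdh2 led the cadherins, 4.45 times Cdh6 (47.3 ± 4.23 RPKM), with Cdh11 (1.01 ± 0.194 RPKM) near the limit, and Gpc1 (599.8 ± 32.3 RPKM) led Sdc4 (138 ± 6.52 RPKM) and Sdc2 (81.9 ± 1 RPKM) among the heparan sulfate proteoglycans.

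Other receptor families were described by their leading genes. Of the TGF-beta superfamily, the coreceptor Tgfbr3 (154 ± 10.2 RPKM) led Bmpr1a (62.6 ± 1.39 RPKM) and Eng (52.9 ± 1.88 RPKM). Notch2 (119 ± 10.8 RPKM) was 4.93 times Notch1, and Fzd7 (58.9 ± 1.5 RPKM) overlapped the Wnt coreceptor Lrp6 (56.7 ± 3.93 RPKM). Tnfrsf12a, the receptor of the cytokine TWEAK, was the highest TNF receptor at 414, 352, and 345 RPKM, with replicate 1 above the others, and the next were Ltbr (116 ± 3.68 RPKM) and Tnfrsf1a (82.7 ± 3.64 RPKM). Fas, which passes death signals, lay under the limit. Il6st, the shared signal chain of the IL-6 family, was at 218 ± 14.3 RPKM, with Il6ra at 19 ± 2.68 and Il11ra1 at 11.2 ± 1.63 RPKM. Ifngr1 (34.2 ± 1.39 RPKM) and Ifngr2 (33.6 ± 1.28 RPKM), both needed to sense interferon gamma, did not differ beyond their spread. Of 12 Toll-like receptors, Tlr4 (39.5 ± 2.71 RPKM) and Tlr3 (5.36 ± 2.01 RPKM) were detected.

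Of the listed receptors coupled to G proteins, those of thrombin and related proteases were the highest. F2r was at 309, 338, and 329.7 RPKM and F2rl1 at 295, 303, and 296 RPKM, and the other members of that family were under the limit. S1pr2 (61.3 ± 1.76 RPKM), Lpar1 (50.1 ± 1.98 RPKM), and Lpar6 (41.2 ± 1.82 RPKM) were the main receptors of lysophospholipids. Of 9 adrenergic receptors, 3 were detected, with Adra1d (10.7 ± 0.891 RPKM) and Adra1b (5.57 ± 0.919 RPKM) the highest. Of 22 chemokine receptors, 4 were detected, none above 4.07 RPKM in a sample, and Ccr4 (2.33, 3.08, and 4.07 RPKM), Ackr3 (3.87, 2.12, and 2.82 RPKM), and Cxcr4 (2.97, 3.1, and 2.24 RPKM) overlapped. No endothelin, melanocortin, or adenosine receptor was detected, and the nearest to the limit was Adora2b (1.03, 1.04, and 0.79 RPKM).

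Several receptors lay on the other side of the limit from their ligands. The genes set side by side here were chosen after their values had been seen. The ligands of Axl, Gas6 (0, 0.02, and 0 RPKM) and Pros1 (0 in each sample), were at or near 0 beside a receptor at 988 ± 74.4 RPKM. The same held for Igf1r, with Igf1 and Igf2 at 0, and for Met, with Hgf at 0.09, 0, and 0.07 RPKM. The reverse was seen for Csf1, the growth factor of macrophages, at 433, 438, and 438 RPKM with its receptor Csf1r at 0, 0, and 0.06 RPKM, and for Kitl at 19.8, 19.9, and 19.6 RPKM with Kit at 0. Both sides were present for PDGF, with Pdgfa at 60.9 ± 1.72 RPKM and Pdgfc at 55.9 ± 2.56 RPKM above their receptors. The EGF ligands Hbegf (136, 129, and 129.7 RPKM), Ereg (76.7, 76.5, and 86 RPKM), and Areg (37, 34.8, and 36.6 RPKM) were high and apart from each other, with Egfr near 0. The medium held serum, which contains growth factors, so a ligand at 0 in the RNA says nothing of its presence in the dish.

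**Figure D4:**
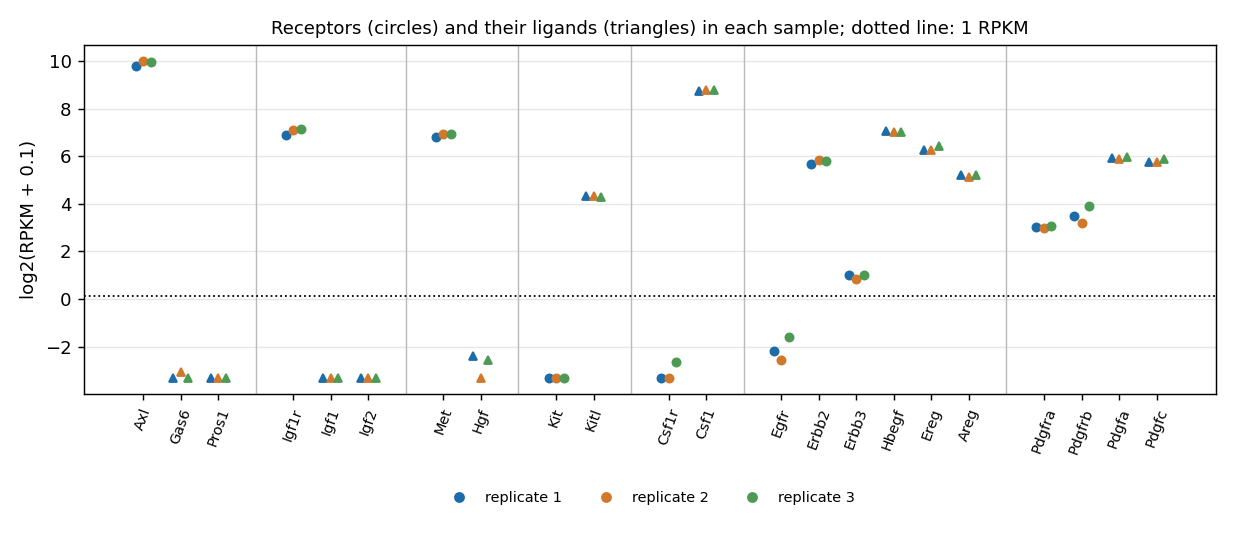
RNA levels of 10 receptors (circles) beside ligands of their receptor families (triangles), in 7 groups divided by grey lines. Values are log2(RPKM + 0.1) in each of the 3 samples, with a dotted line at 1 RPKM. A ligand in a group need not bind every receptor of it. Axl, Igf1r, and Met lie far above the line with their ligands below it, and Csf1 and Kitl lie above it with their receptors below.

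Among secreted growth factors, Csf1 led, and Angptl2 (404, 413, and 416 RPKM) was next with no overlap, then Grn (349, 387, and 348 RPKM), the precursor of granulins. Of 22 FGF genes, Fgf7 (21.8 ± 1.34 RPKM), a growth factor of epithelia, and Fgf14 (8.71 ± 0.548 RPKM), which stays inside the cell, were detected. Vegfb (47.8 ± 1.05 RPKM) was above Vegfa, and both lay below Pdgfa and Pdgfc. Tgfb1 (39.1 ± 2.62 RPKM) led Gdf11 (16.5 ± 2.22 RPKM) and Tgfb3 (7.56 ± 0.359 RPKM), and the procollagen protease Bmp1 (90.8 ± 1.4 RPKM) was 9.79 times Bmp4 (9.28 ± 0.444 RPKM), a true BMP ligand. Of the IGF-binding proteins, Igfbp3 (176, 175, and 160.5 RPKM), Igfbp6 (121, 112, and 108 RPKM), and Igfbp4 (103, 108, and 95 RPKM) were detected, the last pair with an overlap, and Igfbp1, Igfbp2, Igfbp5, and Igfbp7 were at 0. Wnt10a (36 ± 4 RPKM) was 4.32 times Wnt7b (8.33 ± 2.13 RPKM), and Wnt5a came next. The repulsive guidance gene Sema3b (106 ± 3.4 RPKM) led Sema3a (49.6 ± 4.69 RPKM) and Sema3c (9.43 ± 0.592 RPKM).

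Few chemokines were expressed. Ccl2, which draws monocytes, was at 64.2, 49.3, and 51.7 RPKM, replicate 1 being the highest, and was 19.2 times Ccl25 (2.86 ± 0.379 RPKM), with Ccl7 at 0.48, 1.1, and 1.51 RPKM. Of the list of CXC and related chemokines, the membrane-bound Cx3cl1 was at 45.7, 49.2, and 45.4 RPKM and Cxcl1 at 0.86, 1.32, and 1.03 RPKM, and 13 of 17 were at 0, Cxcl9 among them. Of 40 interleukins and IL-6 family cytokines, 6 were detected. Clcf1 (41.6 ± 4.22 RPKM), a cytokine of the IL-6 family, and Il34 (36 ± 3.77 RPKM), a further ligand of the Csf1 receptor, overlapped, and Il16 (10.8 ± 0.648 RPKM) was lower. Among ligands that T and NK cells read, Pvr, the ligand of TIGIT and CD226, was at 158, 157, and 153 RPKM, above the do-not-eat-me signal Cd47 (38.9 ± 1.79 RPKM) and Nectin2 (14.9 ± 1.2 RPKM). Cd274, which encodes PD-L1, was under the limit at 0.59, 0.63, and 0.79 RPKM.

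Genes of the basement membrane were prominent among those of the matrix. Lamb1 (607, 667, and 658 RPKM), Lamc1 (338, 391, and 386 RPKM), and Lama5 (305, 359.9, and 359 RPKM), chains of laminin-511, were the 3 highest of 11 laminin genes. Replicate 1 was the lowest for each of them, and Lamc1 and Lama5 overlapped. Of 44 collagen genes, 11 were detected, and Col4a1 (508 ± 21 RPKM), Col3a1 (466 ± 15.2 RPKM), and Col4a2 (351 ± 19.6 RPKM) were the highest. Spp1, the secreted phosphoprotein osteopontin, was at 1783, 1702, and 1624 RPKM, 2.09 times Sparc, in a list of 37 matrix glycoproteins of which 22 were detected and Lgals1 was the highest. The collagen chaperone Serpinh1 (876 ± 50 RPKM) was 3.71 times the next serpin, Serpinb6a (236 ± 3.81 RPKM).

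Of 22 matrix metalloproteases, the membrane-anchored Mmp14 was at 516, 559, and 516 RPKM, 9.84 times Mmp11 (53.9 ± 0.441 RPKM), with Mmp16 at 10.7 ± 1.1 RPKM. The gelatinases Mmp2 (0.78, 0.61, and 0.49 RPKM) and Mmp9 (0.11, 0.04, and 0.11 RPKM), of which the first is activated by MMP14, were under the limit. Timp2, the inhibitor that MMP14 binds in doing so, was at 879, 884, and 882 RPKM and was 6.29 times Timp1 (140.2 ± 7.33 RPKM), and Timp3 and Timp4 were at 0. The lysosomal proteases Ctsd (877 ± 19.7 RPKM), Ctsl (625 ± 20.3 RPKM), and Ctsz (204 ± 10.3 RPKM) led the cathepsins. The urokinase receptor Plaur (298, 275, and 257 RPKM) was far above Plat (51.8 ± 2.18 RPKM) and above urokinase Plau itself (3.79 ± 0.153 RPKM).

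The enzymes of prostaglandin E2 were present at each step, and its receptors were mostly not. Ptgs2 (chr1:150100031-150108227 of GRCm38), the inducible COX-2, was at 749, 777, and 759 RPKM, and the constitutive COX-1 gene Ptgs1 (chr2:36230426-36252272) was at 142, 164, and 149 RPKM. The ratio was 5.03 and the log2 difference 2.33 ± 0.08, with the same order in all 3 samples. Of the prostaglandin E synthases, the cytosolic Ptges3 was at 282, 302, and 289 RPKM, 3.75 times Ptges, which encodes mPGES-1 (78, 75, and 79.8 RPKM), and Ptges2 was at 18.3, 18.2, and 16.8 RPKM. Ptges3 is also the HSP90 cochaperone p23, so its level is not that of a dedicated synthase. Upstream, the arachidonic acid releasing Pla2g4a (108 ± 1.73 RPKM) was below Pla2g7 (244 ± 7.15 RPKM), which cleaves platelet-activating factor. Synthases of other prostanoids were led by the aldose reductase genes Akr1b3 (122 ± 5.34 RPKM) and Akr1b8 (37.9 ± 3.33 RPKM), and Ptgis was at 0. Of 9 prostanoid receptors, the EP1 gene Ptger1 alone was detected, at 28.6, 26.4, and 30.9 RPKM. In the annotation its exons overlap those of another gene, whose reads could be counted for it. Ptger2 and Ptger3 were at 0, Ptger4 was at 0.6, 0.91, and 0.66 RPKM, and Ptgfr crossed the limit in 1 sample at 0.57, 0.94, and 1.14 RPKM. The exporter Abcc4 was at 20 ± 4.21 RPKM, and the degrading enzyme gene Hpgd was at 0.

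Most steps of glycolysis had 1 dominant isoform. The glucose transporter Slc2a1 was at 262, 288, and 250.3 RPKM, 22.6 times Slc2a8. Hk1 (79.1 ± 3.01 RPKM) was above Hk2 (29.2 ± 2.15 RPKM), and the liver-type Pfkl (131 ± 6.46 RPKM) was 9.95 times Pfkm (13.2 ± 1.17 RPKM), which overlapped Pfkp (12.2 ± 1.02 RPKM). Aldoa (1085 ± 19.1 RPKM) stood against Aldoc (1, 0.52, and 0.4 RPKM), and Eno1 was 118 times Eno3 (26.7 ± 3.04 RPKM). Pgk1 (1000.5 ± 9.77 RPKM) and Tpi1 (881 ± 8.75 RPKM) were below Gapdh, Pgam1 was at 587 ± 5.99 RPKM, and of the pyruvate kinases Pkm was present and Pklr was at 0. Ldha, which makes lactate, was at 1896, 1866, and 1903 RPKM and Ldhb at 15.2, 12.9, and 13.3 RPKM, a ratio of 137. The lactate exporter Slc16a3 (270.0, 302, and 253 RPKM) was apart from Slc16a13 (199.8 ± 8.13 RPKM) and Slc16a1 (155 ± 9.17 RPKM). Of the brakes on pyruvate entry into mitochondria, Pdk1 (55.1 ± 4.04 RPKM) was above Pdk3 (37.3 ± 1.18 RPKM), with Pdk4 (4.61 ± 0.165 RPKM) and Pdk2 (2.6 ± 0.415 RPKM) lower. The PFKFB enzymes, which set the level of an activator of glycolysis, were low, and Pfkfb1 (7.39 ± 0.573 RPKM) and Pfkfb2 (6.59 ± 0.202 RPKM) were the highest.

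**Figure D5:**
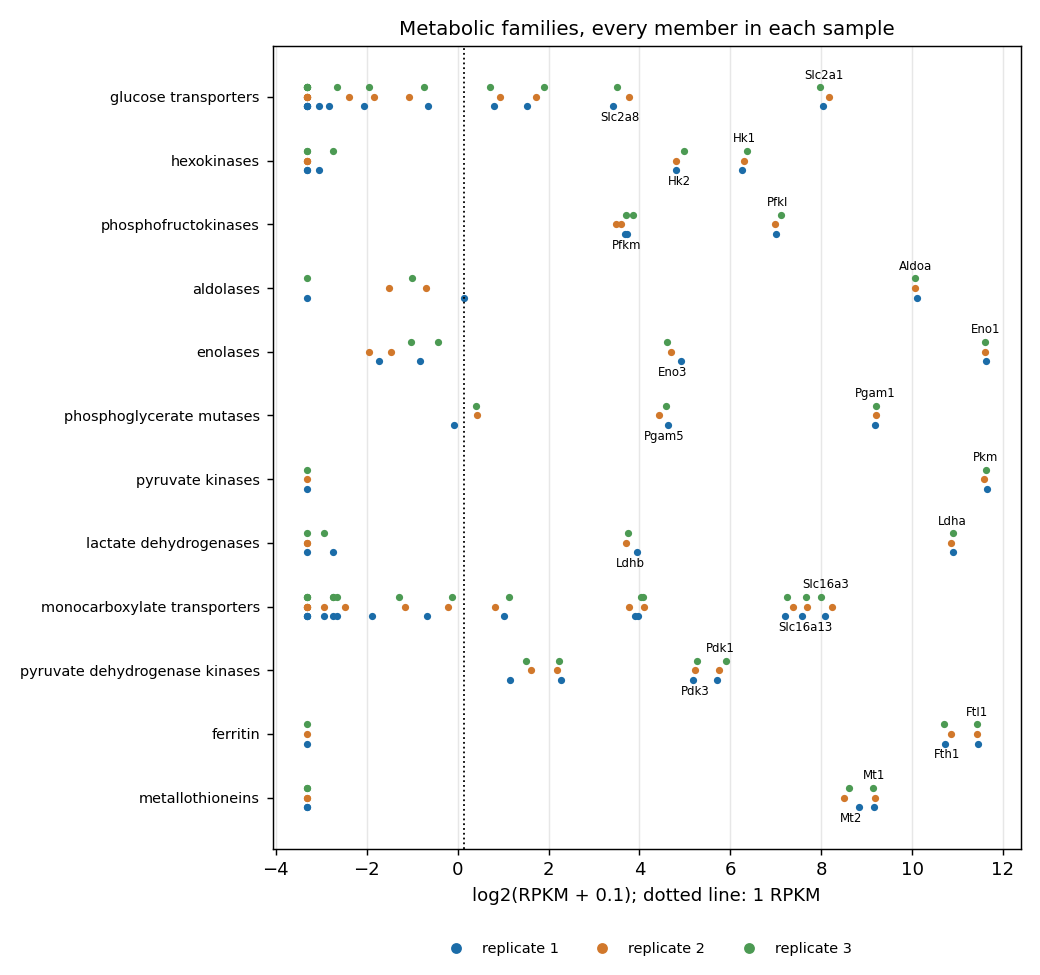
Every member of 12 metabolic families in each of the 3 samples, as log2(RPKM + 0.1), with a dotted line at 1 RPKM and the names of the leading pair of detected genes. The leader lies clear of the second gene in all 12 families, with ratios of at least 10 times in aldolases, enolases, phosphoglycerate mutases, lactate dehydrogenases, and glucose transporters. In pyruvate kinases the second gene, Pklr, was at 0, so no ratio to Pkm can be given.

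Amino acid metabolism was led by serine synthesis. Phgdh, the first enzyme of that branch, was at 966, 950.2, and 945 RPKM, Psat1 at 556, 518, and 527 RPKM, and the mitochondrial Shmt2 at 313 ± 15.3 RPKM, and 12 of 13 serine and one-carbon genes were detected. The neutral amino acid transporters Slc38a2 (599 ± 24.1 RPKM) and Slc7a5 (537 ± 41.6 RPKM), and Slc3a2 (287 ± 13 RPKM), the heavy chain of Slc7a5, were high, and Slc7a1 (164 ± 13.4 RPKM) was the main cationic transporter. Got2 (258 ± 8.82 RPKM) was above Got1 (57.5 ± 1.62 RPKM) and Gpt2 (51.7 ± 2.43 RPKM), and Mdh2 (405 ± 4.55 RPKM) was above Mdh1 (102 ± 2.84 RPKM). Idh2 (119 ± 2.84 RPKM) led Idh3b (73.7 ± 5.52 RPKM) and Idh3a (57.1 ± 1.76 RPKM). Odc1, the first enzyme of polyamine synthesis, was at 889, 895, and 920.1 RPKM, and the other 6 genes of arginine and nitric oxide were under the limit.

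Genes of lipid synthesis were nearly all detected, with 10 of 13 for fatty acids. All 14 genes of the cholesterol list reached 10 RPKM, among them Fdps (293 ± 8.83 RPKM, with 63.3% of its exon bases shared with Gm43738 on the same strand) and Sqle (207 ± 2.75 RPKM). Scd2, a desaturase that makes oleate, was at 1076, 1153, and 1154 RPKM, 3.54 times Fasn (319 ± 21.6 RPKM), and Fasn, Scd1 (302 ± 18.2 RPKM), and Fads2 overlapped. Cpt2 (26.3 ± 2.76 RPKM) and Cpt1a (24.6 ± 0.884 RPKM), which carry fatty acids into mitochondria, did not differ beyond their spread, and Fabp5 (21.3 ± 2.98 RPKM) was the one fatty acid binding protein detected of 8.

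Mitochondrial and antioxidant families had leaders of the ubiquitous type. Slc25a5 (479.7 ± 12.5 RPKM) was above Slc25a4 (335 ± 5.87 RPKM) among the ADP/ATP translocases, and Cox6a1 (742 ± 71.3 RPKM) and Cox4i1 (566 ± 59.9 RPKM) stood against the isoforms of muscle and lung, Cox6a2 and Cox4i2, at no more than 0.3 RPKM. Atp5mc2 (466 ± 19.9 RPKM) led Atp5mc3 (360.0 ± 16.4 RPKM) and Atp5mc1 (90.8 ± 6.91 RPKM). Prdx1 (483 ± 20.8 RPKM) was above Prdx2 (194 ± 1.84 RPKM) and Prdx4 (174 ± 4.78 RPKM), and Gpx4, the guard against ferroptosis, was at 478, 445, and 435 RPKM, above Gpx1 (189 ± 12.5 RPKM) and Gpx8 (136 ± 9.56 RPKM). Sod1 (201 ± 15.6 RPKM) was 9.61 times Sod2 (20.9 ± 0.604 RPKM). The ferritin chains Ftl1 and Fth1 (1745 ± 104 RPKM) were apart, as were Mt1 (573, 584, and 567 RPKM) and Mt2 (457, 364, and 391 RPKM), of which Mt2 was the highest in replicate 1.

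The cytoskeleton was led by cytoplasmic isoforms. Actb was 1.85 times Actg1 (1316 ± 34.5 RPKM), and the 4 muscle actins were under the limit. Tuba1b (1993 ± 42.8 RPKM) and Tubb5 (1021 ± 16.2 RPKM) led their families. After Vim, the intermediate filaments were the lamins Lmna (1043 ± 26.1 RPKM) and Lmnb1 (99.8 ± 3.89 RPKM). Tpm1 was apart from Tpm4 (463 ± 26.6 RPKM), which overlapped Tpm3 (448 ± 9.97 RPKM). S100a4 and S100a6 were followed by S100a11 (1509.8 ± 59.2 RPKM), and S100b, the melanocytic S100 gene used in pathology, was at 0.04, 0.07, and 0.15 RPKM. Anxa2 was followed by Anxa1 (909 ± 42.3 RPKM) and Anxa5 (532 ± 16.7 RPKM), Lgals1 by Lgals3 (315 ± 21 RPKM), and Cav1 by Cav2 (192 ± 9.67 RPKM). Gja1 (167 ± 9.57 RPKM) led the connexins at 8.5 times Gjc1. Cfl1 (1333 ± 43.3 RPKM) and Pfn1 (1032 ± 70.2 RPKM) led the cofilins and profilins, Tmsb10 (258 ± 17.4 RPKM) overlapped Tmsb4x (233 ± 21.4 RPKM), and Hspa5 (967 ± 41.8 RPKM) and Hsp90b1 (1446 ± 38.7 RPKM), chaperones of the endoplasmic reticulum, came second to their cytosolic relatives.

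Across 119 families and groups outside the marker lists, 116 had a member at 1 RPKM or more, and in 106 of these the leader was apart from the second gene. The leader was at least 2 times the second in 69 families and at least 10 times in 20. The 10 families whose leader overlapped the second gene were Hox A, Hox B, nuclear receptors, dual specificity phosphatases, Frizzled and LRP, chemokine receptors, interferon receptors, interleukins, carnitine palmitoyltransferases, and beta thymosins. An overlap of ranges can hide a steady order within samples. In every sample Hoxb7 was above Hoxb6 and Tmsb10 above Tmsb4x. The order of the leading pair varied between samples in Hox A, nuclear receptors, dual specificity phosphatases, and carnitine palmitoyltransferases. Leaders were picked as the highest of each family, so their lead is part of how they were chosen, and the count is a description.

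The 3 samples gave nearly the same order of genes, with Spearman's rho of 0.992 to 0.993 across the 11314 detected genes, which share their library preparation and are not independent. Of 7930 genes that reached 10 RPKM on average and 1 RPKM in every sample, 24 differed by 2 times or more between samples. The 10 with the largest ratios were Mir684-1, DQ555148, Snord17, Hist2h4, AK148054, Ankrd49, Rmrp, Hist1h4c, Hist1h3i, and Mapk7. Mir684-1 was at 44, 4.32, and 5.6 RPKM, high in replicate 1 alone. Among these, the RNA of RNase MRP, Rmrp (833, 2179, and 1372 RPKM), the small nucleolar RNA Snord17 (7.96, 23.1, and 13.3 RPKM), and the replication-dependent histone genes Hist2h4 (6.73, 18.8, and 10.4 RPKM), Hist1h4c (9.53, 24.7, and 16.6 RPKM), and Hist1h3i (7.17, 17.5, and 15 RPKM) were lowest in replicate 1 and highest in replicate 2. These RNAs mostly lack a poly(A) tail. The ribosomal RNA row Rn45s had the same order, at 5550.3, 11269, and 7587 RPKM, and its part in the values of other genes was not tested. Mapk7 (12.9, 5.64, and 13.3 RPKM), which encodes ERK5, was lowest in replicate 2. Replicate 1 also differed with transcript length. Its median log2 difference from the other samples was 0.09 in the 1665 genes with the shortest transcripts and -0.09 in the 1665 with the longest. In replicate 3 these medians were -0.04 and 0.15, and in replicate 2 they were -0.06 and -0.07. Some genes were set beside these medians after their values had been seen. S100a4, Lgals1, and Ccl2 were highest in replicate 1. Lamb1, Lama5, and Axl were lowest in replicate 1 but highest in replicate 2. The median of the genes with the longest transcripts was instead highest in replicate 3. Whether transcript length accounts for the levels of the named genes was not tested.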

How the data were processed

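RNA from cells grown at 37 °C in 5% CO2 was sequenced in paired reads of 101 bases. The authors deposited 1 table of RPKM values per gene, rounded to 2 decimals, with the build mm10 named in the submitters' processing notes. The aligner, the counter, and the annotation are not given in the sources used here. The labels name a strand-specific library kit and one that is not. The sums of RPKM per sample nearly coincide (878504 to 881246), so a scaling to a fixed total is possible.

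Only the 3 scramble columns were used, as deposited, with Python 3.11.15, numpy 2.4.6, and pandas 2.3.3. Gene symbols were matched to rows by name, and 3 listed symbols had no row. Differences between genes used a pseudocount of 0.1 RPKM. The text names the 30 highest rows, up to 3 leading genes of a family at 1 RPKM or more, the defining genes of each lineage list, the 10 most variable genes, and Ptgs1, Ptgs2, and Ptges. Further members, mostly low or absent, were named after their values were seen. The lists and members were chosen with earlier results of these data known. Gene places and exons are from GENCODE M21 and promoters from RefSeq, both on GRCm38. The order rule was tested on simulated data. Values of the knockout samples were left out. Some members are not reported here.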

Additional observations from a re-analysis of the deposited data

How the results depend on the processing

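The number of detected genes lay between 9346 and 12054 under every alternative (limits of 0.5 and 5 RPKM, the lowest sample in place of the mean, other scalings, and a sample left out) against 11314. The count of families with a leader apart from the second gene lay between 103 and 110 against 106. Another gene led in up to 2 families when a sample was left out, in nuclear, chemokine, and interferon receptors. None of them had a leader apart, and a leader apart cannot fall below its second gene in this way. The share of the 20 highest rows fell from 24.4% to 17.2% without the 6 mitochondrial rows and to 18.7% without rows not described as mRNA, both alternatives chosen after seeing the data, and no row carries the prefix mt-. The melanocyte count was 3 at a limit of 5 RPKM and 8 at 0.5 RPKM, against 6, and was 6 to 7 with a sample left out. The median coefficient of variation, 7.57%, was 6.28% for genes at 10 RPKM or more, 7.09% after median ratio rescaling, and 6.00% to 6.54% with a sample left out. Of 580 recomputed log2 differences between leader and second, 15 moved by more than their SD, all with a pseudocount of 1 RPKM. Taking the median or leaving out a sample cannot move a mean of 3 values that far. For leaders apart from the second, 0 reversed, which ranges without overlap fix in advance. For overlapping families a reversal was not looked for. No paired analysis was possible because only 1 group was described and no result comes from a test between groups. With 3 samples the spread itself is known only roughly, and values of less than 1 RPKM rest on few reads.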
